A study of Mus musculus with 16 samples.

Results

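The expressed long intergenic noncoding RNAs (lincRNAs) of mouse hepatocytes were examined. They were selected on 2 properties, a deposited gene type of lincRNA and a mean of at least 1 FPKM (fragments scaled to gene length and library depth) over 16 libraries. Of 54532 genes in the table, 5559 had that type and 122 of those passed. Another 3796 lincRNA genes were listed at 0 in every library, and 1641 lay above 0 with a mean under 1 FPKM. Just inside the limit were Gm14009 (mean 1.001), A430046D13Rik (1.04) and Platr22 (1.06), and just outside it Gm1976 (0.993), Snhg10 (0.971) and Gm30692 (0.9545). The selection used mean levels over all libraries, so these levels are a description. It is also not independent of the groups: 12 of the 122, among them Gm6093, H19 and Gm45881, reached 1 FPKM only through the 7 libraries with inhibitor, and 10, among them Gm40040, only through the other 9. The limit thus favours members that differ with the inhibitor, and these 4 are given for that contrast without a test.

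LincRNAs are transcripts from stretches between protein-coding genes that are not translated into a conventional protein. Some stay in the nucleus, such as Malat1, which gathers in the nuclear speckles where splicing factors are stored, and Neat1, the scaffold around which paraspeckles form. Others are hosts, whose introns are cut into small nucleolar RNAs (snoRNAs, guides for the modification of ribosomal RNA) or microRNAs (short guides that repress target mRNAs), and a few carry short reading frames translated into micropeptides.

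RNA was sequenced from mouse hepatocytes, labelled as a cell line, in 5 groups. They were cultured alone (n = 3), with cancer cells wild type for Phgdh (WT, n = 3) or with cancer cells knocked out for Phgdh (KO, n = 3). Further co-cultures received a CXCR2 inhibitor, with WT cells (n = 3) or with KO cells (n = 4). Phgdh encodes the enzyme that starts serine synthesis from glucose, and CXCR2 is a chemokine receptor. The title of the series concerns serine that hepatocytes provide to pancreatic cancer growing in the liver. The series' design text describes the sequenced material as HY19636 cancer cells, grown alone or with hepatocytes, while every sample label names hepatocytes, and the labels were followed. The inhibitor was given only to co-cultures, and the labels give no dose, time, vehicle or number of knockout clones. Whether the replicates are independent cultures is not stated, and the spread behind each p-value is that of these libraries and may be technical.

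Libraries held 15 to 21.3 M fragments, and 1 fragment in a 1 kb gene was worth 0.0457 to 0.0648 FPKM. All 20 hepatocyte markers examined were above 0 in some library and 17 of them passed 1 FPKM on average. Their summed level was 547 to 553 FPKM alone, 766.5 to 886 in co-culture and 1339 to 1722 with the inhibitor, and 14 (WT) and 15 (KO) of the 17 were higher with the inhibitor. In co-culture against cells alone only 3 of the 17 were higher, while 10 (WT) and 11 (KO) were lower, with median log2 differences of -0.585 and -0.45, so the sum and most of the genes differ in direction. Cholangiocyte markers were also high in the cells cultured alone, summing to 1258 to 1279 FPKM, with Spp1 at a mean of 1016 FPKM. They summed to 429 to 463 FPKM in co-culture and 609 to 659 with the inhibitor. Markers of pancreatic cancer epithelium summed to 534 to 543 FPKM in cells cultured alone, 399 to 418 in co-culture and 849 to 924 with the inhibitor, while Tff1, Agr2 and Ptf1a were listed at 0 throughout. Kupffer cell and macrophage markers summed to 114 to 117 FPKM alone, 44.6 to 49.9 in co-culture and 103.5 to 109.5 with the inhibitor, nearly all of it Cd14, and 5 of their 10 genes (Adgre1, Clec4f, Marco, Tyrobp, Vsig4) were listed at 0. Stellate and endothelial markers summed to under 0.4 FPKM in every library. The part of other cell types in the differences below was not tested, and in bulk RNA fewer cells of a type and less RNA per cell cannot be told apart. Phgdh itself lay between 146 and 208 FPKM in every library, and by the labels the knockout was made in the other cells, which these libraries would then not check. With hepatocyte, cholangiocyte and pancreatic epithelium markers all present, the marker levels do not settle which of the 2 descriptions of the sequenced cells is right.

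Promoter sequences are shown for the members with the largest changes, so that the letters can be read beside the values. Of 16 eligible members with a RefSeq promoter (GRCm38.p6; 250 bases before to 50 after the start), the 8 with the largest change in any comparison were considered. Those 5 whose start lay within 100 bases of the gene start in the deposited table are printed 5′ to 3′. Capitals mark matches, on either strand, to 6 searched motifs: TGANTCA (AP-1), TGACGTCA (cyclic AMP response element), TGATGNAA (C/EBP-ATF composite), CACGTG (E-box), GAAANNGAA (part of the interferon-stimulated element) and TTCNNNGAA (STAT). No printed match overlaps another.
Gm6093, chr13:33569268-33569567, minus strand: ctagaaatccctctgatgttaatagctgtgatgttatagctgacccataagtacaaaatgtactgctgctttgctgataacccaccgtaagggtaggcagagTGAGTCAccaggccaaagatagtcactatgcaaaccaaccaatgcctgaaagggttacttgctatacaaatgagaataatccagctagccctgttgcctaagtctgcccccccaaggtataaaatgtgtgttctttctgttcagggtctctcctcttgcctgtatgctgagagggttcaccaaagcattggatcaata
AW112010, chr19:11050517-11050816, minus strand: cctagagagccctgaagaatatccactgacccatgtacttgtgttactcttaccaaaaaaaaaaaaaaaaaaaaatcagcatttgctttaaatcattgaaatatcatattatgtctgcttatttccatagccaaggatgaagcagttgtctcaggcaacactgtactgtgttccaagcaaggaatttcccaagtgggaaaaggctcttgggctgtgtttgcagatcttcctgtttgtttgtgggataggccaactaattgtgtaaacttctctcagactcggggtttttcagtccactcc
Snhg12, chr4:132308428-132308727, plus strand: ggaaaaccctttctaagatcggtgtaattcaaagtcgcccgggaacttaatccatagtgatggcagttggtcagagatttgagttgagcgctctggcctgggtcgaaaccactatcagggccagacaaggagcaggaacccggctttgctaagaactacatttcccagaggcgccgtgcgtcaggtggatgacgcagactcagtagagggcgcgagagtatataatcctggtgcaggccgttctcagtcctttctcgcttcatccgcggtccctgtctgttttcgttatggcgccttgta
Malat1, chr19:5802623-5802922, minus strand: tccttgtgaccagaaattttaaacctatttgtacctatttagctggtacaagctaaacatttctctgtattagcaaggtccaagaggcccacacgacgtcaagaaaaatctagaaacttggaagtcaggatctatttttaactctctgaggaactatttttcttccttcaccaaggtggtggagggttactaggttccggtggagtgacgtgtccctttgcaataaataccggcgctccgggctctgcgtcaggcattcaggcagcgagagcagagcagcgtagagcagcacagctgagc
1810008I18Rik, chr7:65802787-65803086, plus strand: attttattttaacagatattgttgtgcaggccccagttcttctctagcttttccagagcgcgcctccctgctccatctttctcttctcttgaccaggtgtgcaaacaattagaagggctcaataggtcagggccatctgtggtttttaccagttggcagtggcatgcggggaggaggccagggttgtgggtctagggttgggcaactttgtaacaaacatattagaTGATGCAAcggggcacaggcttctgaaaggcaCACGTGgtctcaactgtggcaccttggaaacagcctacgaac

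The Gm6093 promoter held 1 match, to TGANTCA, at position -148 from the start. The 1810008I18Rik promoter held 2, to TGATGNAA and CACGTG. Those of AW112010, Snhg12 and Malat1 held none of the 6, which says only that these letters are not in this window. Over all 32817 RefSeq promoters, 7.81% held TGANTCA, 1.79% TGACGTCA, 3.97% TGATGNAA, 7.15% CACGTG, 8.55% GAAANNGAA and 8.29% TTCNNNGAA. RefSeq had 96 promoters for 64 of the 122 lincRNAs, and the corresponding shares were 9.38%, 3.12%, 1.04%, 5.21%, 6.25% and 5.21%. The 64 do not count equally in these shares, since 9030622O22Rik alone has 26 RefSeq promoter entries. By gene, 9, 3, 1, 5, 6 and 5 of the 64 held a match, in the same order. A match describes letters and not a bound site.

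Mature microRNAs (RefSeq, GRCm38.p6) are shown for Mir17hg and H19, the hosts best known for their microRNAs, with the seed (bases 2 to 8) in capitals. In the Mir17hg cluster, miR-17-5p and miR-20a-5p share the seed AAAGUGC, miR-19a-3p and miR-19b-3p share GUGCAAA, and miR-18a-5p and miR-92a-3p have seeds of their own. The level of mature microRNAs was not analysed here.
miR-17-5p: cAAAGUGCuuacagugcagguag
miR-20a-5p: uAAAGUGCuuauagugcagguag
miR-18a-5p: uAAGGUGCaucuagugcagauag
miR-19a-3p: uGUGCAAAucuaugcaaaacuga
miR-19b-3p: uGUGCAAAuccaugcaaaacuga
miR-92a-3p: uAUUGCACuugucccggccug
miR-675-5p: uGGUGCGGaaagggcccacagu
miR-675-3p: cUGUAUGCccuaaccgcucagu

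Most expressed lincRNAs were present at low levels. The median of the 122 means was 2.31 FPKM, 48 lay between 1 and 2 FPKM, 59 between 2 and 10, and 15 above 10. A member received a median of 77.4 fragments per library, and 10 averaged under 20. All but 4 were detected in each library (118 of 122), and 37 had a mean under 1 FPKM in at least 1 group. Their transcripts were 192 to 20771 bases long with a median GC content of 48.1% (range 37.1 to 75.5%), and 14 had a single exon.

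By mean, Gm26917 was highest at 131.7 FPKM, followed by Gm10076 (71.6), Malat1 (48.6), 2900097C17Rik (44.6), Epb41l4aos (40.6) and Neat1 (36.4). Gm10076 is 384 bases long and covered along 100% of its length by Rpl41 transcripts at 99.5% identity, so fragments of that ribosomal protein mRNA and of Gm10076 cannot be told apart with certainty. It spanned 32.3 to 57.3 FPKM alone, 38.65 to 108 with WT cells, 55.8 to 176 with KO cells, 17.3 to 93.3 with WT cells and inhibitor, and 33.6 to 181 with KO cells and inhibitor. Every pair of groups overlapped in Gm10076 and no comparison passed the test. For 22 of the 122, including 2900097C17Rik, Gm26809, Gm26880, Gm42047, Gm47467 and Tmem250-ps, at least 50% of the transcript was covered at 95% identity or more by transcripts of other genes, and their counts are uncertain for that reason.

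The fraction of each library taken by the 122 lincRNAs was largest with the inhibitor. It was 0.159 to 0.168% of fragments alone, 0.1935 to 0.220% with WT cells, 0.194 to 0.199% with KO cells, 0.402 to 0.427% with WT cells and inhibitor, and 0.396 to 0.411% with KO cells and inhibitor. The 7 inhibitor libraries lay above the other 9 without overlap. The 122 include members that the limit selected for being high with the inhibitor. All lincRNA genes of the table took 0.181 to 0.19% alone, 0.218 to 0.244% in co-culture without inhibitor and 0.431 to 0.460% with it. Malat1, Neat1 and Gm26917 held a large part of the rise. Malat1 and Neat1 together took 0.0306 to 0.0335% alone, 0.0511 to 0.07665% in co-culture without inhibitor and 0.180 to 0.205% with it. Genes of the annotation's TEC class are transcripts awaiting experimental evidence. They took 0.0327 to 0.0339% alone, 0.0377 to 0.0418% in co-culture without inhibitor and 0.0590 to 0.0630% with it. Fragments of mitochondrial genes moved the other way, from 3.25 to 4.57% without the inhibitor to 1.86 to 2.11% with it. The detected lincRNA genes numbered 649 to 676 alone, 617 to 729 in co-culture without inhibitor and 772 to 852 with it. Detected genes of all types numbered 17469 to 17812 alone, 17370 to 18360 in co-culture without inhibitor and 18592 to 19367 with it.

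**Figure D1:**
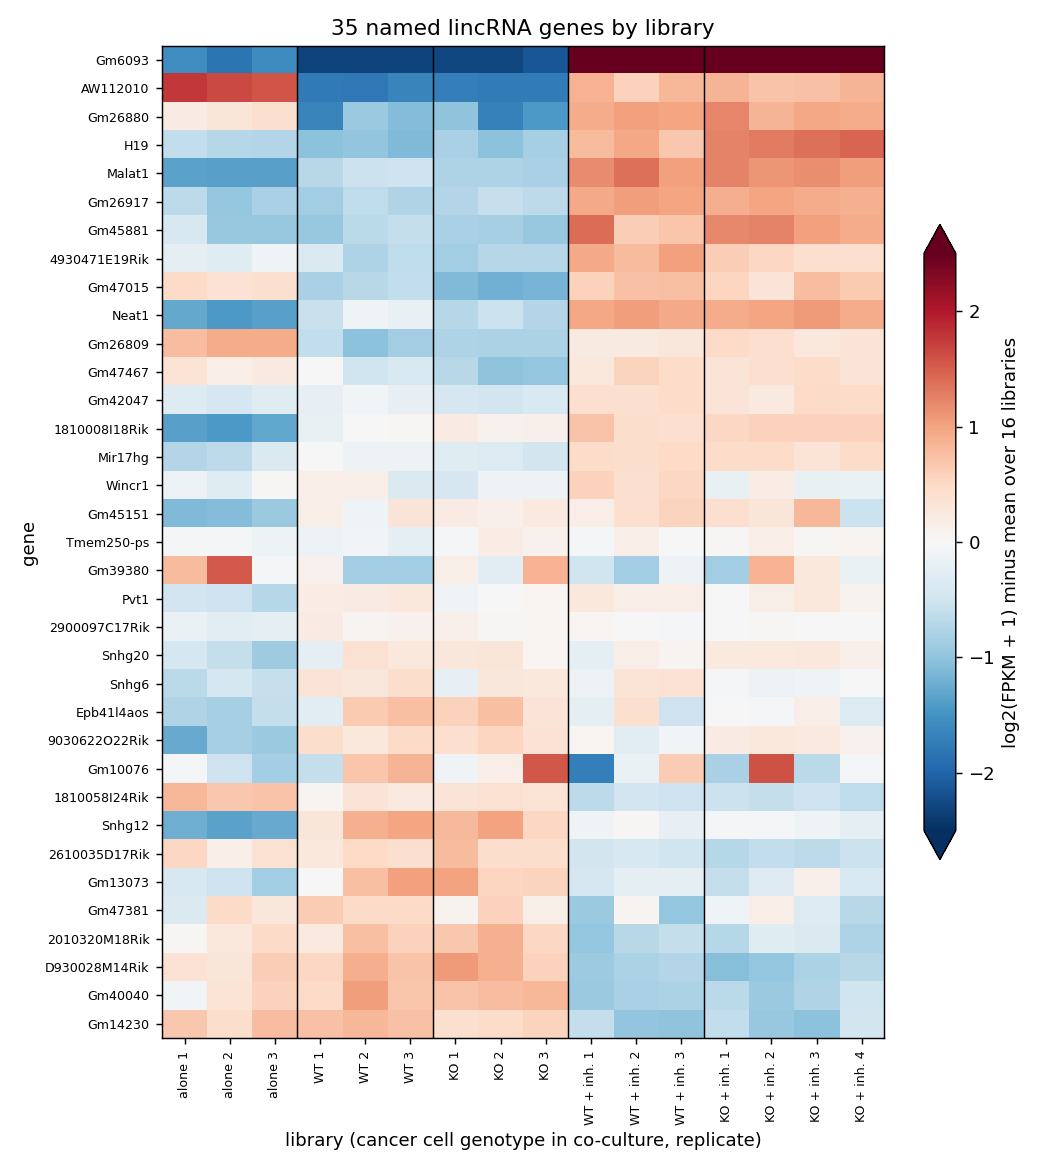
Each row is 1 of 35 named lincRNAs and each column 1 of 16 libraries (rows ordered by the inhibitor change in WT co-culture). Colour is log2(FPKM + 1) minus the gene's mean over all libraries, red above and blue below. Malat1, Neat1, Gm26917 and H19 are red in all 7 inhibitor columns, and AW112010 is red in the 3 columns of cells cultured alone and in the inhibitor columns.

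Differences were tested with limma on log2(FPKM + 1) over all 11395 genes with a mean of at least 1 FPKM, and a gene was called at a Benjamini-Hochberg adjusted p under 0.05. In WT co-culture against cells alone, 67 lincRNAs were called, 40 higher and 27 lower, a share of 54.9% where the share over all genes was 62.0% (30.1% higher, 31.9% lower). In KO co-culture against cells alone, 57 were called, 35 higher and 22 lower, or 46.7% beside 61.5% (30.3% higher, 31.2% lower). The median log2 difference of the 122 was 0.08 in WT and 0.09 in KO co-culture, beside 0.01 over all genes in each. Both comparisons share the 3 libraries of cells cultured alone.

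With the inhibitor, 81 lincRNAs were called in WT co-culture, 51 higher and 30 lower, or 66.4% beside 66.6% of all genes (33.5% higher, 33.0% lower). In KO co-culture 79 were called, 49 higher and 30 lower, or 64.8% beside 69.5% (34.8% higher, 34.7% lower). Under quantile normalization the split was 40 higher and 37 lower in WT, and 40 higher and 40 lower in KO co-culture. The median difference was 0.06 in WT and 0.13 in KO co-culture, beside -0.01 over all genes in each, and turned to -0.09 and -0.03 under quantile normalization, beside -0.07 over all genes in each. The share of lincRNAs called was thus close to that of all genes in both inhibitor comparisons. Called rises of at least 1 on the log2(FPKM + 1) scale numbered 16 in WT and 15 in KO co-culture, and falls of that size 5 and 6. Over all genes 7.59% and 7.79% had such a rise and 2.89% and 3.11% such a fall. Of the 12 lincRNAs that passed only through the inhibitor libraries, 10 and 11 were among those higher and 6 and 5 among the larger rises, so the counts of rises hold members that the limit selected for rising. Of the 10 that passed only through the other libraries, 6 were among those lower in each, so the counts of falls hold such members too.

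**Figure D2:**
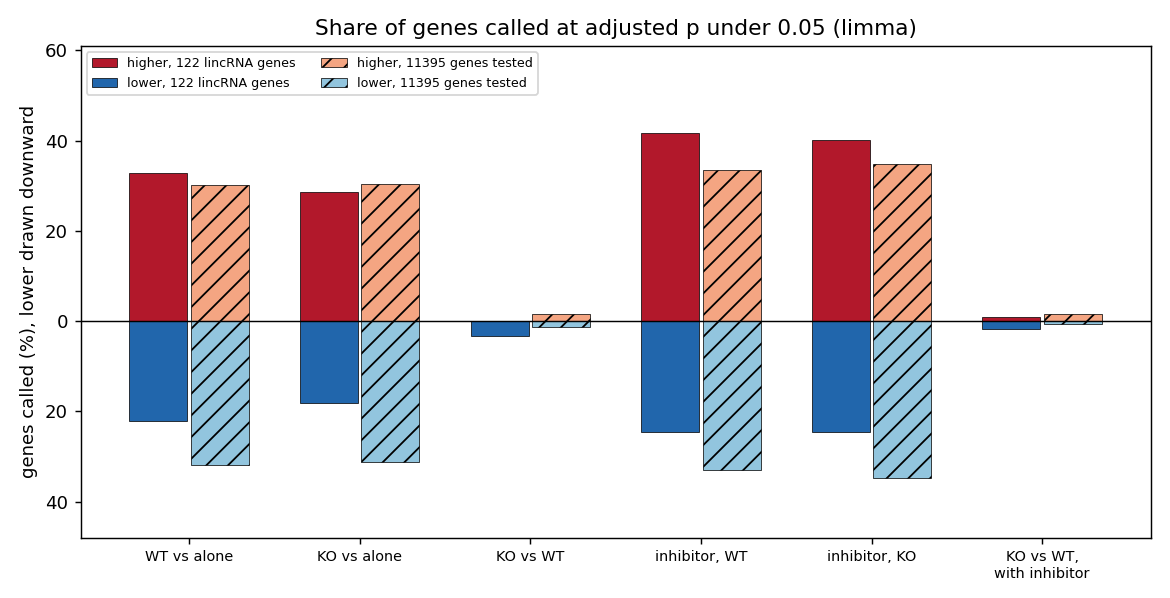
Bars give the percentage of the 122 lincRNAs (plain) and of all 11395 genes tested (hatched) called at a limma adjusted p under 0.05, higher drawn upward and lower downward, for 6 comparisons. The 4 comparisons with co-culture or inhibitor have tall bars in both directions, and the 2 between KO and WT have 3 and 4 lincRNAs called.

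The nuclear lincRNAs Malat1 and Neat1 rose in co-culture and rose again with the inhibitor. Malat1 (ENSMUSG00000092341, chr19:5795690-5802672, minus strand, GRCm38) measured 14.2, 13.99 and 13.95 FPKM in cells alone. It measured 22.7, 25.6 and 25.75 with WT cells and 21.5, 21.6 and 21.03 with KO cells. With the inhibitor it measured 86.5, 99.4 and 76.9 in WT and 89.5, 82.0, 85.05 and 78.3 in KO co-culture. All 7 inhibitor libraries stood above all others, and all 6 co-cultures without inhibitor above cells alone. Malat1 rose by 0.77 ± 0.08 (log2 difference ± SE here and below, adjusted p = 5.61e-07, limma) with WT and by 0.57 ± 0.08 (1.28e-05) with KO cells. The inhibitor difference was 1.78 ± 0.08 (4.11e-11) in WT and 1.92 ± 0.07 (7.19e-12) in KO co-culture. Rescaled without mitochondrial genes and the 50 most abundant genes, these were 1.81 and 1.965. Malat1 overlaps 2 further entries of the annotation, Gm20417 and Gm37376.

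Neat1 (chr19:5824708-5845478, minus strand), which lies near Malat1 on the same chromosome, had a similar order of groups. It measured 11.75, 10.4 and 11.1 FPKM alone, 20.04, 28.2 and 26.2 with WT cells and 17.7, 20.3 and 17.6 with KO cells. Inhibitor libraries measured 59.3, 62.3 and 58.2 in WT and 57.5, 60.1, 63.6 and 57.8 in KO co-culture. The inhibitor libraries were separate from all others, while the WT and KO co-cultures overlapped. Neat1 rose by 1.08 ± 0.10 (adjusted p = 1.64e-07, limma) with WT and 0.69 ± 0.10 (1.93e-05) with KO cells, and with the inhibitor by 1.25 ± 0.10 (2.75e-08) and 1.64 ± 0.09 (5.3e-10).

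Paraspeckle proteins were compared because Neat1 is their scaffold. Of 18 tested, 2 were higher and 15 lower with WT cells, and 2 were higher and 13 lower with KO cells, with median differences of -0.345 and -0.32, where 30.1% and 30.3% of all genes were higher and 31.9% and 31.2% lower. With the inhibitor 8 were higher and 2 lower in WT, and 9 higher and 3 lower in KO co-culture. Over all genes 33.5% (WT) and 34.8% (KO) were then higher and 33.0% and 34.7% lower. Sfpq, a core paraspeckle protein, averaged 55.1 FPKM alone, 31.2 and 33.4 in WT and KO co-culture and 41.7 and 43.2 with the inhibitor. Its partner Nono averaged 129 FPKM alone, 94.2 and 101.5 in co-culture and 116 with the inhibitor in each. In co-culture Neat1 rose while these 2 fell (Sfpq adjusted p = 8.58e-12 and Nono 1.26e-08 with WT cells, limma).

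Gm26917 (ENSMUSG00000097971, chr17:39843013-39846341, plus strand) had the highest level. It measured 69.7, 56.2 and 62.5 FPKM alone, 60.0, 71.1 and 65.7 with WT cells and 66.4, 73.8 and 69.8 with KO cells. The values with inhibitor were 216, 229 and 219.6 in WT and 209.5, 221.5, 211 and 206 in KO co-culture. Groups without inhibitor overlapped and none of their comparisons passed the test, while all inhibitor libraries stood well above. The inhibitor difference was 1.74 ± 0.07 (adjusted p = 2.96e-11, limma) in WT and 1.585 ± 0.07 (3.2e-11) in KO co-culture. The gene lies just before Gm42418, a lincRNA gene of the table that was listed at 0 in every library and that RefSeq names as related to 18S ribosomal RNA, and its GC content is 69.8%. The part of ribosomal RNA in its level was not tested. Without Gm26917 the lincRNA share of fragments was 0.141 to 0.145% alone, 0.171 to 0.197% in co-culture without inhibitor and 0.326 to 0.348% with it. This share includes Malat1 and Neat1, which together took 0.0306 to 0.0335% alone and 0.180 to 0.205% with the inhibitor.

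2900097C17Rik (Norad in RefSeq), a lincRNA known to bind Pumilio proteins, changed little. It measured 36.4 to 39.4 FPKM alone, 46.6 to 51.6 with WT cells, 45.6 to 48.9 with KO cells, and 43.8 to 45.8 over the 7 inhibitor libraries. It rose by 0.36 ± 0.04 (adjusted p = 4.11e-06, limma) and 0.30 ± 0.04 (2.69e-05) in WT and KO co-culture, and the co-culture libraries lay above all 3 of cells alone. A difference of -0.12 with the inhibitor in WT co-culture (adjusted p = 0.0198) did not pass after quantile normalization (-0.10, 0.117) or without WT replicate 1 (0.0834) or WT with inhibitor replicate 3 (0.0681). Of the 19 known nuclear and chromatin lncRNAs looked up in the table, 8 reached the level for testing, 4 of them lincRNAs by type (Malat1, Neat1, 2900097C17Rik and H19). Of the 8, 4 were higher and 2 lower in each co-culture. With the inhibitor 6 were higher and 2 lower in WT, and 6 higher and 1 lower in KO co-culture. These rises include H19, which passed the limit only through the inhibitor libraries. Over all genes 30.1% (WT) and 30.3% (KO) were higher and 31.9% and 31.2% lower in co-culture. With the inhibitor 33.5% (WT) and 34.8% (KO) of all genes were higher and 33.0% and 34.7% lower. Meg3, Xist, Hotair and Miat were at or near 0.

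**Figure D3:**
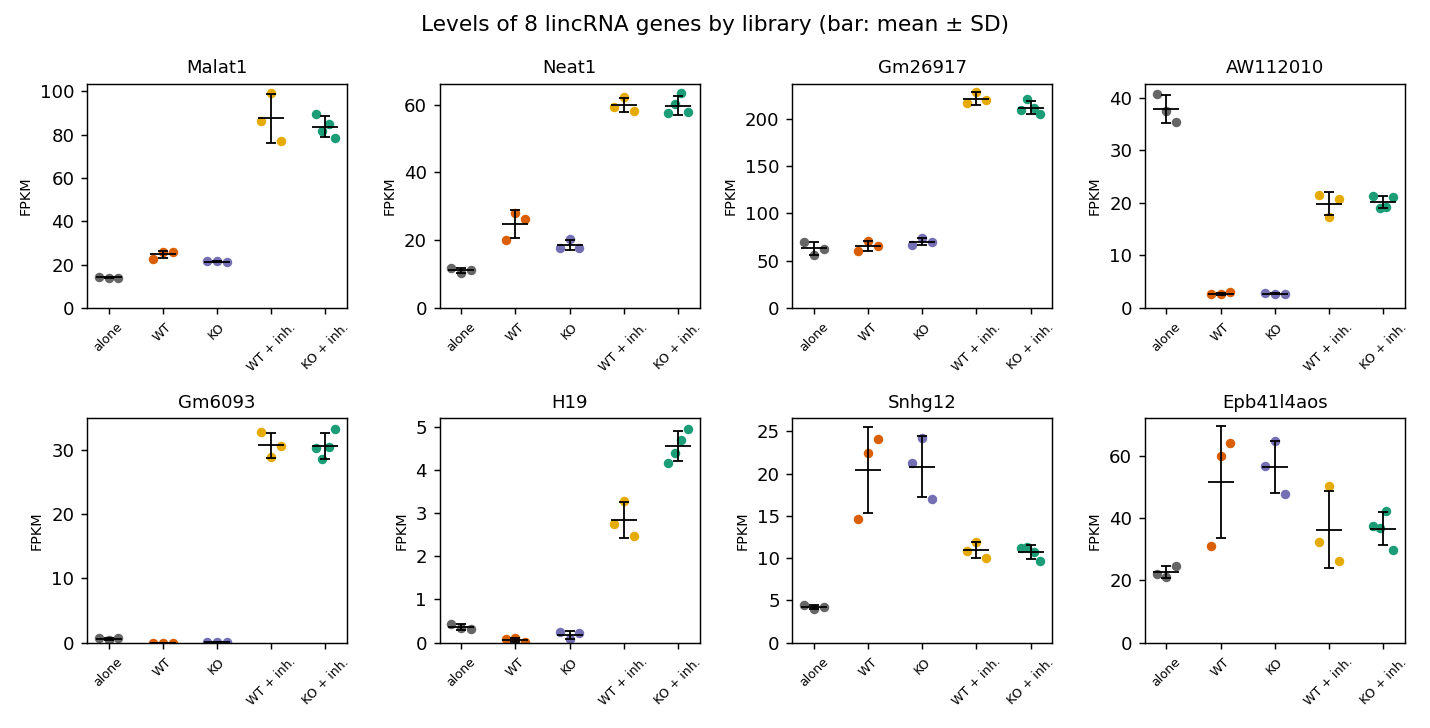
Points are FPKM of single libraries for 8 lincRNAs in the 5 groups (cells alone, WT or KO co-culture, and both with inhibitor), and bars are means ± SD with n = 3, or n = 4 for KO with inhibitor. Malat1, Neat1, Gm26917, Gm6093 and H19 are highest with the inhibitor, AW112010 is highest in cells alone, and Snhg12 is highest in the co-cultures without inhibitor.

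Of 5 lincRNAs that hold a snoRNA gene, 4 rose in each co-culture. Snhg12 (chr4:132308623-132311024, plus strand), whose introns hold snoRNAs such as Snora44, Snora61 and Snord99, measured 4.41, 4.02 and 4.23 FPKM alone. It measured 14.7, 22.4 and 24.1 with WT cells and 21.2, 24.2 and 16.99 with KO cells. Under the inhibitor it measured 10.9, 11.85 and 9.95 in WT and 11.2, 11.4, 10.7 and 9.60 in KO co-culture. The 3 levels did not overlap: low alone, intermediate with inhibitor, and high in co-culture without it. Snhg12 rose by 2.01 ± 0.15 (adjusted p = 2.54e-08, limma) and 2.05 ± 0.15 (2.03e-08) in WT and KO co-culture, and fell by 0.82 ± 0.15 (0.000228) and 0.885 ± 0.14 (5.72e-05) with the inhibitor.

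Epb41l4aos, which also holds a snoRNA gene, measured 22.1, 20.99 and 24.8 FPKM alone, 31.2, 60.0 and 64.25 with WT cells and 56.9, 64.9 and 47.9 with KO cells. With the inhibitor it measured 32.4, 50.45 and 26.4 in WT and 37.5, 37.0, 42.5 and 29.7 in KO co-culture. Co-cultures stood above cells alone, but WT replicate 1 was far below the other two and overlapped the inhibitor libraries. Epb41l4aos rose by 1.10 ± 0.25 (adjusted p = 0.00164, limma) and 1.28 ± 0.25 (0.000508) in WT and KO co-culture. The fall with the inhibitor in KO co-culture, -0.61 ± 0.24 (0.0322), did not pass in 4 of the fits that each left out 1 library (KO replicate 1 or 2, or KO with inhibitor replicate 2 or 4, adjusted p 0.0734, 0.116, 0.051 and 0.0849) nor with the replicate block (-0.52, 0.0782). Its transcript is only 430 bases long, and Rpl41, a short mRNA, had its lowest level within each co-culture group in the same library as Epb41l4aos. Rpl41 measured 470, 833 and 869 FPKM with WT cells, 775, 904 and 583 with KO cells, 442, 583 and 385 with WT cells and inhibitor, and 523, 418, 506 and 335 with KO cells and inhibitor. Gm10076, at 384 bases, was lowest in replicate 1 of every co-culture group. Epb41l4aos was lowest in replicate 1 only with WT cells without inhibitor. The part of transcript length in these values was not tested.

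Snhg6 measured 17.9, 21.1 and 19.2 FPKM alone, 36.4, 35.8 and 39.8 with WT and 25.2, 35.75 and 35.1 with KO cells. With the inhibitor it spanned 26.3 to 37.7 in WT and 26.1 to 28.95 in KO co-culture. All co-culture libraries exceeded cells alone, and those with and without inhibitor overlapped. Snhg6 rose by 0.91 ± 0.135 (adjusted p = 3.65e-05, limma) and 0.68 ± 0.135 (0.000518), and its inhibitor differences of -0.16 and -0.19 did not pass (0.309 and 0.188). Snhg20 averaged 1.61 ± 0.39 FPKM (SD, n = 3) alone and 3.54 ± 0.96 and 3.70 ± 0.46 (SD, n = 3) in WT and KO co-culture, with rises of 0.785 ± 0.15 (0.000438) and 0.85 ± 0.15 (0.000222).

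The fifth lincRNA with a snoRNA gene, 2900076A07Rik, was at 0.09 and 0.17 and did not pass. In a wider list of snoRNA hosts of any gene type, 12 were tested, of which 4 are the lincRNAs above. All 12 were higher with WT cells and 11 with KO cells (Snhg4 was not, adjusted p = 0.264), with median differences of 1.01 and 0.90. Gas5 averaged 29.5 FPKM alone, 99.5 and 89.8 in WT and KO co-culture, and 43.5 and 41.6 with the inhibitor. Zfas1 averaged 14.97 alone, 47.7 and 49.97 in co-culture and 20.97 and 21 with the inhibitor. With the inhibitor 7 of the 12 were lower and 1 was higher (Snhg17) in each co-culture. Of 16 factors of nonsense-mediated decay, a pathway known to degrade spliced snoRNA host transcripts, 4 were higher and 5 lower in each co-culture, and 5 and 6 were higher and 6 and 7 lower with the inhibitor in WT and KO co-culture. Of 15 nuclear exosome genes, 5 were higher and 4 lower in each co-culture. Over all genes 30.1% (WT) and 30.3% (KO) were higher and 31.9% and 31.2% lower in co-culture, and 33.5% and 34.8% were higher and 33.0% and 34.7% lower with the inhibitor.

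Of 8 lincRNAs with a microRNA gene inside, 7 were called higher with the inhibitor in WT and 6 in KO co-culture. Among all genes tested, 33.5% (WT) and 34.8% (KO) were called higher. The 8 hold H19, E130102H24Rik and 6720427I07Rik, which passed the limit only through the inhibitor libraries. H19 (chr7:142575529-142578143, minus strand) is an imprinted fetal liver transcript and the precursor of miR-675. It measured 0.428, 0.331 and 0.318 FPKM alone, 0.0757, 0.107 and 0.0194 with WT cells and 0.240, 0.0770 and 0.225 with KO cells. Inhibitor libraries measured 2.75, 3.29 and 2.475 in WT and 4.16, 4.40, 4.70 and 4.945 in KO co-culture. All inhibitor libraries were above all others, and those with KO cells were above those with WT cells. The inhibitor difference was 1.84 ± 0.09 and 2.23 ± 0.08, given without a test since H19 passed the limit only through these libraries. KO exceeded WT under the inhibitor by 0.54 ± 0.08 (adjusted p = 0.00358, limma). With a pseudocount of 0.1 in place of 1 the inhibitor differences were 4.16 and 4.11, since the levels without it are near 0, and the KO minus WT difference became 0.67 and did not pass (0.27). Igf2, the imprinted neighbour of H19, was listed at 0 in every library.

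Albumin followed the same order as H19 under the inhibitor. Alb measured 323 to 343 FPKM with WT cells and inhibitor and 454 to 475 with KO cells and inhibitor, against 22.5 to 58.4 in the other 9 libraries. Neither set of values says whether more cells or more RNA per cell carried the difference.

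Mir17hg (chr14:115042879-115046727, plus strand), the precursor of the growth-promoting miR-17 to miR-92a cluster, measured 1.13, 1.24 and 1.73 FPKM alone, 2.53, 2.24 and 2.24 with WT and 1.85, 1.77 and 1.57 with KO cells. The values with inhibitor were 3.84, 3.78 and 3.975 in WT and 3.83, 3.84, 3.465 and 3.815 in KO co-culture. The inhibitor libraries stood above all others, and KO co-culture overlapped cells alone. It rose with the inhibitor by 0.55 ± 0.08 (adjusted p = 3.71e-05, limma) and 0.80 ± 0.08 (3.36e-07) and with WT cells by 0.50 ± 0.08 (9.25e-05). The rise of 0.21 with KO cells (0.0359) did not pass without either of cells alone replicate 1 (0.165) or 2 (0.116), or KO replicate 1 (0.115) or 2 (0.0858), nor with the replicate block (0.0634).

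None of the 8 was lower with the inhibitor, but H19, E130102H24Rik and 6720427I07Rik reached the limit only through the inhibitor libraries. In a list of known microRNA hosts of any gene type only 2 were tested, Mir17hg, which rose, and Mir22hg, which fell by 0.69 and 0.55 in WT and KO co-culture. Beside Mir17hg and H19 the 8 include AL805899.1 with Mir31, E130102H24Rik with Mir101a, 6720427I07Rik with Mirlet7d and 2900076A07Rik with Mir1839, named here after their values were seen. The exception in both was Snhg20, with Mir6516, at -0.14 and 0.01. Gm26532, with Mir24-2, was higher in WT (0.595, adjusted p = 0.0131, limma) and at 0.34 in KO co-culture (0.103). In co-culture without inhibitor 3 of the 8 were higher and 1 lower with WT cells, and 2 were higher with KO cells. Of 11 microRNA processing genes, 5 were higher and 4 lower with the inhibitor in WT and 5 higher and 2 lower in KO co-culture, where 33.5% and 34.8% of all genes were higher and 33.0% and 34.7% lower.

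The 2 lincRNAs known to carry a micropeptide that were named fell in co-culture. AW112010 (ENSMUSG00000075010, chr19:11047617-11050566, minus strand), an immune-induced transcript whose translation product acts in macrophages, measured 40.8, 37.4 and 35.4 FPKM alone. It measured 2.58, 2.535 and 2.91 with WT and 2.75, 2.645 and 2.66 with KO cells. Under the inhibitor it measured 21.4, 17.3 and 20.8 in WT and 21.2, 18.99, 19.25 and 21.1 in KO co-culture. The 3 levels were separate, with WT and KO libraries intermixed within each. The fall was -3.40 ± 0.08 with each genotype (adjusted p = 4.5e-14 in both, limma), the largest fall among the 122, and the inhibitor rise was 2.498 ± 0.08 (9.24e-13) and 2.52 ± 0.07 (3.56e-13). Ccl2, an inflammatory chemokine, had the same order of groups, with 868 to 892 FPKM alone, 8.73 to 16.7 in co-culture and 288 to 311.5 with the inhibitor. The summed Kupffer and macrophage markers given above had that order too, with the defining genes named there at 0, and their part in the result was not tested.

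1810058I24Rik, which encodes the mitochondrial micropeptide mitoregulin, measured 40.3, 35.95 and 36.8 FPKM alone, 23.2, 28.0 and 26.55 with WT and 28.0, 29.1 and 28.2 with KO cells. With the inhibitor it measured 13.7, 15.65 and 15.3 in WT and 14.9, 14.2, 15.2 and 13.99 in KO co-culture. It was highest alone and lowest with the inhibitor, without overlap between these 3 levels. It fell by 0.525 ± 0.07 (adjusted p = 7.74e-06, limma) and 0.39 ± 0.07 (0.000131) in WT and KO co-culture and by a further 0.76 ± 0.07 (1.29e-07) and 0.92 ± 0.06 (6.34e-09) with the inhibitor. The mitochondrial share of fragments given above was also lowest with the inhibitor.

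Gm6093 (ENSMUSG00000112963, chr13:33562486-33569317, minus strand), whose promoter is printed above and whose function is not known here, had the largest rise. It measured 0.704, 0.405 and 0.689 FPKM alone, 0 in all 3 libraries with WT cells, and 0.0289, 0.0278 and 0.130 with KO cells, the last 3 from 2, 2 and 8 fragments. Inhibitor libraries measured 32.8, 28.9 and 30.6 in WT and 30.3, 28.55, 30.4 and 33.3 in KO co-culture, from 1609 to 2259 fragments. Against a floor of 3 fragments per library (0.042 to 0.0547 FPKM), the lowest WT inhibitor library was at least 529-fold higher than WT co-culture, and the lowest library of cells alone at least 7.40-fold higher. On the log2(FPKM + 1) scale the inhibitor difference was 4.99 ± 0.08 and 4.90 ± 0.07, given without a test since Gm6093 passed the limit only through these libraries. That of co-culture was -0.67 ± 0.08 (adjusted p = 3.13e-06, limma) and -0.59 ± 0.08 (1.31e-05). These values depend on the pseudocount. A ribozyme gene inside it, Gm25043, was listed at 0.

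Gm26880 and Gm26809 shared a pattern of being low in co-culture. Gm26880 measured 5.33 to 6.31 FPKM alone, 0.754 to 1.92 with WT cells, 0.719 to 1.76 with KO cells, and 8.93 to 11.8 over the inhibitor libraries. Gm26809 measured 24.9 to 28.05 alone, 6.53 to 8.87 with WT, 7.78 to 7.88 with KO cells and 16.85 to 20.1 with the inhibitor. Gm26880 was thus highest with the inhibitor and Gm26809 highest alone. Gm26880 differed by -1.52 ± 0.18 (adjusted p = 3.31e-06, limma) and -1.67 ± 0.18 (1.26e-06) in co-culture and by 2.20 ± 0.18 (5.24e-08) and 2.36 ± 0.17 (9.62e-09) with the inhibitor. Gm26809 differed by -1.71 ± 0.08 (1.34e-10) and -1.66 ± 0.08 (1.96e-10), and by 1.09 ± 0.08 (2.17e-08) and 1.16 ± 0.08 (4.29e-09).

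Other lincRNAs high in co-culture included 9030622O22Rik, which starts 2674 bases downstream of Foxa2, a liver transcription factor gene on the same strand. It measured 2.51, 3.69 and 3.40 FPKM alone, 10.3, 9 and 10.6 with WT and 10.2, 11.1 and 9.68 with KO cells, with rises of 1.39 ± 0.105 (adjusted p = 2.78e-08, limma) and 1.44 ± 0.105 (1.92e-08). The co-culture libraries did not overlap cells alone, while Foxa2 spanned only 33.8 to 41.3 FPKM over all 16. With the inhibitor 9030622O22Rik fell by 0.49 ± 0.105 (0.000887) in WT co-culture, and its difference of -0.23 in KO co-culture (0.0497) did not pass when any 1 of 6 libraries was left out (adjusted p 0.0531 to 0.17; KO replicates 1 and 2 and each of the 4 KO inhibitor replicates) nor with the replicate block (0.149).

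1810008I18Rik measured 0.452, 0.382 and 0.516 FPKM alone, 2.27, 2.76 and 2.83 with WT and 3.28, 3.02 and 3.08 with KO cells, and 3.97 to 5.08 with the inhibitor. Its groups stepped up without overlap from alone to WT, to KO, and to the inhibitor groups. The rise was 1.32 ± 0.08 (adjusted p = 2.3e-09, limma) and 1.51 ± 0.08 (4.83e-10), with a further 0.56 and 0.42 under the inhibitor (2.1e-05 and 0.00017), while the KO minus WT difference of 0.19 did not pass (0.282). Gm13073 and Gm45151 also rose in co-culture, by 1.19 and 1.16 with WT and 1.30 and 1.23 with KO cells. Gm13073 returned to 0.9405 to 2.17 FPKM with the inhibitor, and Gm45151 stayed at 0.846 to 3.74.

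Pvt1, the transcript downstream of the Myc oncogene, measured 2.38, 2.27 and 1.86 FPKM alone, 4.38, 4.43 and 4.62 with WT and 3.41, 3.72 and 3.88 with KO cells. Every co-culture library exceeded cells alone and WT exceeded KO without overlap. It rose by 0.79 ± 0.08 (adjusted p = 3.76e-07, limma) and 0.56 ± 0.08 (1.47e-05), and the KO minus WT difference of -0.23 did not pass (0.143). Inhibitor differences of -0.02 and 0.13 did not pass either. Myc itself lay between 86.3 and 97.4 FPKM in all 16 libraries.

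The lincRNAs that fell most with the inhibitor were low to moderate in level. Gm14230 measured 6.56 to 9.10 FPKM without and 1.81 to 3.16 with the inhibitor, a difference of -1.63 ± 0.14 (adjusted p = 1.29e-07, limma) in WT and -1.23 ± 0.13 (1.21e-06) in KO co-culture. D930028M14Rik measured 4.99 to 7.73 in co-culture without and 0.982 to 1.57 with it (-1.52 and -1.72). 2010320M18Rik measured 9.29 to 15.1 in co-culture without and 3.495 to 6.06 with it (-1.27 and -1.24). Gm40040, which passed only through the libraries without inhibitor, measured 1.64 to 2.93 in co-culture without and 0 to 0.3345 with it (-1.58 and -1.49). 2610035D17Rik measured 4.63 to 7.08 in co-culture without and 1.85 to 2.52 with it (-0.85 and -1.185). None of these 5 overlapped between co-cultures with and without inhibitor. They were picked for the largest falls in this contrast, so that separation is a description. Gm47381 fell in WT co-culture (-1.14, adjusted p = 0.00267), its difference of -0.52 in KO co-culture did not pass (0.0974), and neither did the difference between both effects (0.62, 0.628). Gm45881, which passed the limit only through the inhibitor libraries, measured 0 to 0.277 FPKM in co-culture without and 1.95 to 4.07 with the inhibitor.

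The inhibitor differences in WT and KO co-culture come from separate libraries. Of the 122, 43 were higher in both, 22 lower in both, and none was called in opposite directions. Over all genes 30.6% were higher in both and 29.7% lower in both. The 43 and the 22 hold members that the limit selected for rising or for falling with the inhibitor. Another 30 were called in 1 of the 2. The test of the difference between both inhibitor effects called none of the 122, beside 0.816% of all genes. In that test 18 had an unadjusted p under 0.05.

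**Figure D4:**
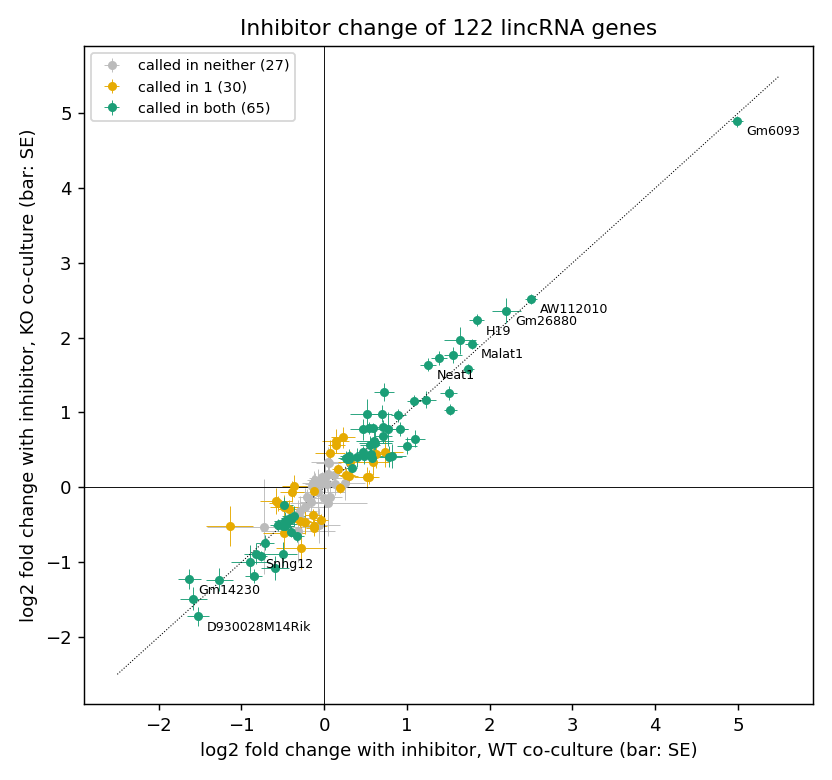
Each point is 1 of the 122 lincRNAs, with its log2 difference under the inhibitor in WT (horizontal) and KO (vertical) co-culture and SE bars; the dotted line marks equal values. Points lie along that line from D930028M14Rik at -1.52 and -1.72 to Gm6093 at 4.99 and 4.90, and 65 are called in both. Gm6093 passed the limit only through the inhibitor libraries.

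Few lincRNAs differed between co-cultures with KO and WT cancer cells. Without inhibitor 4 were called, all lower with KO cells, or 3.28% beside 2.99% of all genes (1.65% higher, 1.34% lower), and 15 had an unadjusted p under 0.05. Gm47467 measured 3.46, 2.14 and 2.42 FPKM with WT and 1.75, 1.20 and 1.26 with KO cells (-0.60 ± 0.12, adjusted p = 0.0163, limma). Gm47015 measured 0.756, 0.896 and 0.986 with WT and 0.418, 0.332 and 0.368 with KO cells (-0.45 ± 0.10, 0.0219). In Gm47467, Gm47015 and Gm42047 the genotypes did not overlap.

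Neat1, with values given above, was the third (-0.39 ± 0.10, adjusted p = 0.0432, limma), and Gm42047 the fourth, at 11.02, 12.2 and 11.03 FPKM with WT and 9.36, 9.14 and 9.60 with KO cells (-0.26 ± 0.06, 0.035). None of the 4 calls was kept in every fit without 1 library. Gm47467 was lost without KO replicate 2 (0.0695) or 3 (0.0692), and with limma-voom on recovered fragments (0.214). It rests on 22, 16 and 20 fragments with WT and 14, 10 and 9 with KO cells. Gm47015 was lost without WT replicate 2 (0.0643) or 3 (0.0891) or KO replicate 1 (0.0561), 2 (0.0783) or 3 (0.0724). Neat1 was lost without WT replicate 2 (0.14) or 3 (0.149) or KO replicate 1 (0.146) or 3 (0.148), and with the replicate block (0.0601). Neat1 was also lost when genes with a mean of at least 0.1 FPKM were tested (0.0602) and without the intensity trend (0.0513). Gm42047 was lost without WT replicate 2 (0.117) or 3 (0.0637) or KO replicate 1 (0.102), 2 (0.113) or 3 (0.0777).

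Under the inhibitor 3 were called between KO and WT, or 2.46% beside 2.31% of all genes (1.66% higher, 0.649% lower), and 13 had an unadjusted p under 0.05. H19 was higher with KO cells, as given above. Wincr1 measured 3.59, 3.05 and 3.405 FPKM with WT and 1.68, 2.501, 1.69 and 1.74 with KO cells (-0.59 ± 0.14, adjusted p = 0.0406, limma), and 4930471E19Rik 5.77, 5.07 and 6.20 with WT and 4.42, 4.04, 3.72 and 3.73 with KO cells (-0.42 ± 0.095, 0.0314). Neither gene overlapped between genotypes. Wincr1 was lost in fits without any 1 of 6 libraries (all but KO replicate 2 with the inhibitor, adjusted p 0.0784 to 0.174) and 4930471E19Rik in fits without any 1 of 5 (all but WT replicate 2 and KO replicate 1 with the inhibitor, 0.0734 to 0.157), and both with the replicate block (0.14 and 0.0949).

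Position relative to coding genes was described next. It is not independent of the selection, since the lincRNA type itself refers to stretches between protein-coding genes. Of the 122, 22 start divergently within 5 kb of a protein-coding gene, 11 lie downstream on the same strand within 5 kb, 13 lie otherwise within 5 kb, 15 overlap one, and 61 are farther away. Since the strandedness of the counts is not given in the sources used here, fragments of overlapping genes cannot be told apart. Of the 11 downstream lincRNAs, 6 were higher with WT and 7 with KO cells and none was lower. Of the 61 distant ones, 15 were higher and 18 lower with WT cells. With the inhibitor 35 of them were higher and 10 lower in WT co-culture, and 31 higher and 8 lower in KO. Gm6093, which passed the limit only through the inhibitor libraries, is 1 of the 61. The counts of rises there thus hold members that the limit selected for rising. Of the 22 divergent ones, 3 were higher and 9 lower with the inhibitor in WT, with 10 not called, and 4 were higher and 11 lower in KO co-culture, with 7 not called. Over all genes 30.1% (WT) and 30.3% (KO) were higher and 31.9% and 31.2% lower in co-culture. With the inhibitor 33.5% (WT) and 34.8% (KO) of all genes were higher and 33.0% and 34.7% lower. The difference between these groups of lincRNAs was not tested.

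For 19 of the 22 divergent lincRNAs the coding neighbour was tested too. Across these 19 pairs the Spearman correlation of the 2 log2 differences was 0.76 with WT cells and 0.65 with KO cells, and 0.44 and 0.61 with the inhibitor; pairs share libraries and are not replicates. With WT cells 6 pairs had both genes called, all 6 in the same direction, and so did 6 with KO cells. For the 43 distant pairs the correlations were 0.46, 0.42, 0.25 and 0.10, and of those with both genes called 17 of 23 (WT) and 14 of 17 (KO) had the same direction in co-culture. For 6 overlapping pairs the correlations were 0.09, 0.49, 0.66 and 0.49. No difference between arrangements was tested. With the inhibitor 8 of 9 divergent pairs in WT and 9 of 11 in KO co-culture with both genes called had the same direction, and so did 20 of 28 and 10 of 20 distant pairs.

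Among the 19, the lincRNA with the largest difference in WT co-culture was Gm27042, beside Aldh18a1, an enzyme of proline synthesis, a pair singled out after its values were seen. Gm27042 measured 1.55, 0.6285 and 0.981 FPKM alone, 3.79, 2.36 and 2.39 with WT and 2.87, 3.24 and 4.44 with KO cells, and 1.17 to 1.87 with the inhibitor. Its co-culture libraries stood above all others. It rose by 0.91 (adjusted p = 0.000402, limma) and 1.15 (5.07e-05) and fell by 0.50 (0.0213) and 0.89 (0.000219) with the inhibitor, and Aldh18a1 differed by 1.765 with WT cells and -0.89 with the inhibitor in WT co-culture. Among named lincRNAs, 2010320M18Rik lies 102 bases from Pik3r2, and both fell with the inhibitor in WT co-culture.

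**Figure D5:**
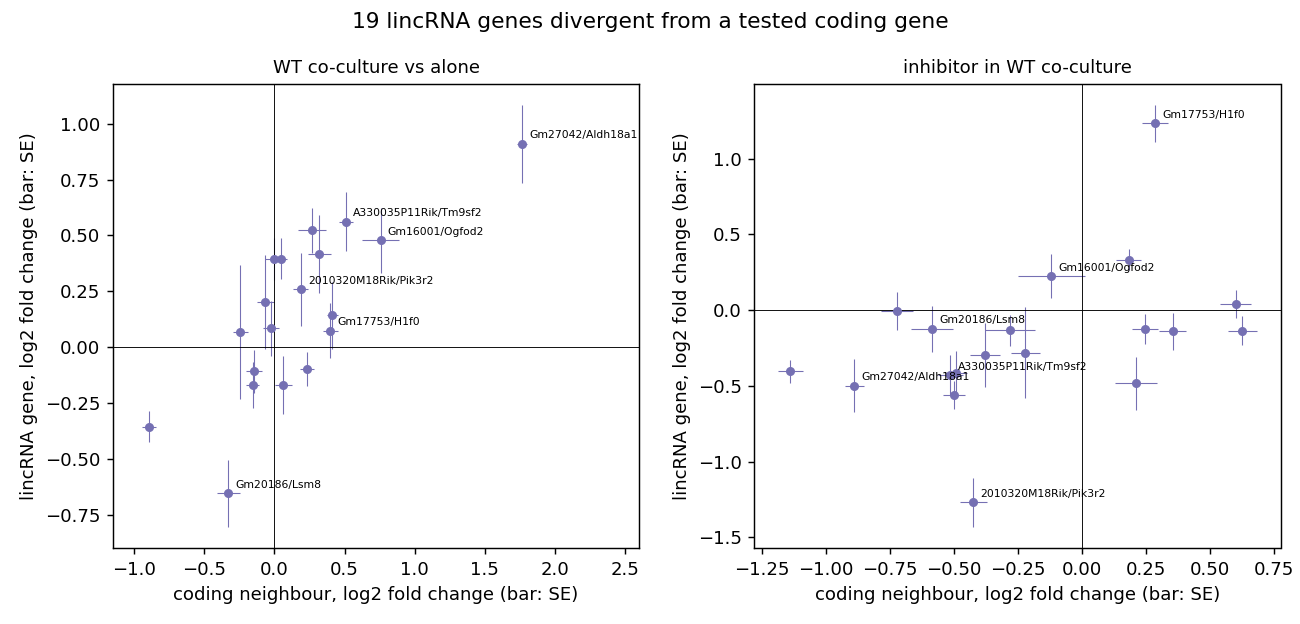
Each of 19 points is a divergent pair, with the log2 difference of the coding neighbour (horizontal) and of the lincRNA (vertical) and SE bars, for WT co-culture against cells alone (left) and for the inhibitor in WT co-culture (right). On the left the points run from Gm20186 with Lsm8 at lower left to Gm27042 with Aldh18a1 at upper right, and on the right they are more scattered.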

How the data were processed

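Gene expression of 16 libraries was analysed from 1 deposited table of FPKM values that the authors made by aligning reads with HISAT2 to GRCm38 (mm10), per the submitters' processing notes. RNA was extracted with an RNeasy kit and sequenced by Novogene, per the labels' protocols. Not given in the sources used here are the strandedness, the annotation release, the tool that counted fragments and the version of HISAT2. Low FPKM values were whole multiples of 1 fragment (tolerance 0.1), which gave the depth of each library. Depth ran from 15 to 21.3 M fragments, and intervals from counts would cover counting error only.

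Genes with a mean of at least 1 FPKM (11395) were fitted with limma 3.58.1 in R 4.3.3 on log2(FPKM + 1), with 5 groups, 11 residual degrees of freedom and an intensity trend. Fold changes on this scale understate changes of low genes. Benjamini-Hochberg adjustment ran over all genes tested. Named lincRNAs were those in 4 lists of known lncRNAs, the 10 highest by mean, the 5 called with the largest rise and the 5 with the largest fall in each comparison, and 3 on either side of the limit. Members and lists were chosen with earlier results of these data known. Near-identical transcripts were found with blastn 2.17.0 in GENCODE M21 (at least 95% identity over 100 bases), and positions come from the deposited table. The fit was tested on simulated data. Alternatives changed the pseudocount, filter, scaling, trend, samples fitted, replicate block, limma-voom on recovered fragments, and each library left out. An alternative without near-identical members was added after seeing the data. A result that names an item withheld for evaluation is not reported here.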

Additional observations from a re-analysis of the deposited data

Results flagged for a closer look

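Among the 35 named lincRNAs, 4 had 1 library far from the other 3 in KO co-culture with the inhibitor, the one group of 4. The gap to the nearest library divided by the group's range exceeded Dixon's 95% critical value in each. Chance flags about 1 in 20 groups. Snhg20 had a ratio of 0.8693, with 1 library at 3.40 FPKM and the highest at 3.86. Mir17hg had a ratio of 0.936, with 1 library at 3.465 and the highest at 3.84. Gm10076 had a ratio of 0.8375, with 1 library at 181.2 and the lowest at 33.6. Wincr1 had a ratio of 0.9279, with 1 library at 2.501 and the lowest at 1.68. The Gm10076 and Wincr1 values come from replicate 2, that of Snhg20 from replicate 4 and that of Mir17hg from replicate 3.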

How the results depend on the processing

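No called value of a named lincRNA changed direction under the alternatives tried, but under quantile normalization the members' median inhibitor difference turned from 0.06 to -0.09 (WT) and from 0.13 to -0.03 (KO). The share of all called genes that were higher moved from 48.5 to 56.1% in WT co-culture and from 50.4 to 44.2% with the inhibitor in WT. Requiring a mean of 2 FPKM gave 43 (WT) and 37 (KO) lincRNAs called against cells alone. Requiring an absolute difference of at least 1 on the log2(FPKM + 1) scale gave 15 and 13 there and 21 in each inhibitor comparison. The same limit gave 0 between KO and WT, with or without inhibitor. Members that overlap no other gene gave 38 and 33 calls in co-culture, 48 (WT) and 46 (KO) with the inhibitor, and 1 between KO and WT with it. KO against WT gave 0 when fitted on those libraries alone and 2 without near-identical members, the latter chosen after seeing the data. KO against WT with inhibitor gave 0 at pseudocount 0.1. The difference between inhibitor effects gave 1 at pseudocount 0.1 and 1 after quantile normalization. With the replicate block calls numbered 66 (WT against alone), 59 (KO against alone), 4 (KO against WT), 78 and 76 (inhibitor in WT and KO), 1 (KO against WT with inhibitor) and 0 (difference between inhibitor effects). Libraries with the same number had deviations correlated from -0.30 to 0.27 (median 0.01), so the numbers were not taken as pairs. Leaving out each library in turn gave 62 to 65 and 54 to 58 calls in co-culture, 0 to 4 between KO and WT, 70 to 75 and 74 to 79 with the inhibitor, 1 to 3 between KO and WT with it and 0 to 1 for the difference. In the same order, calls kept in every such fit were 57 of 67, 47 of 57, 0 of 4, 56 of 81, 66 of 79 and 1 of 3. Members with few fragments are limited by depth.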
